A study of Mus musculus with 16 samples.

Results

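Pax7 and Pax3 were examined as a pair of genes in chromatin immunoprecipitation sequencing (ChIP-seq) of mouse satellite cells in culture. Satellite cells are the resident stem cells of skeletal muscle. The members were the 2 named genes of 21631 protein-coding genes in the RefSeq gene table. For each antibody, overlapping or touching peaks of its 4 libraries were joined into regions. A region was taken for a member if it overlapped the gene body, or if it lay within 50 kb and the member was the nearest protein-coding gene. By this rule Pax7 had 46 of 59960 H3K27ac regions and 9 of 24264 MyoD regions, and Pax3 had 6 and 1.

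The cells came from hindlimb muscle of C57BL/6 mice. Small interfering RNA was applied for 48 h, and the labels mark 2 libraries per antibody as LncMyoD-KD (knockdown of LncMyoD, a long noncoding RNA encoded near Myod1) and 2 as Ctrl. The treatment text names LncMyoD for every sample, Ctrl included, and does not say what the Ctrl cells were given. Neither the age of the mice nor the origin of the replicates is stated. The p-values therefore set a group difference only against other assignments of these libraries to groups, and the spread between the libraries can be technical. Antibodies were directed against H3K27ac, an acetylated histone mark of active promoters and enhancers, and against MyoD, the transcription factor that drives muscle commitment. RNA was not measured in these libraries.

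Pax7 and Pax3 are closely related transcription factors of the paired box family, with a paired domain and a homeodomain that both bind DNA. Pax7 marks satellite cells of adult muscle and is needed for their maintenance, and it is lost as myoblasts differentiate. Pax3 acts earlier, in the muscle precursors of the embryo and in the neural crest, and most adult hindlimb satellite cells carry little of it. Both factors act upstream of Myf5 and Myod1.

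Pax7 lies on mm10 chromosome 4 at 139737059 to 139833530, and Pax3 on chromosome 1 at 78101267 to 78197136. The genes have almost the same annotated length, 96.5 kb for Pax7 and 95.9 kb for Pax3. Pax7 is on the minus strand in the RefSeq promoter table, so it is read from its higher-coordinate end. As background, Pax3 is read from its higher-coordinate end as well, although the gene table used here gives no strand. Distances below are counted from that end, positive into and past the gene. The tables hold no exons, so no region is called exonic or intronic.

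The RefSeq promoter table (GRCm38.p6, the assembly behind mm10) held 1 entry for Pax7 and 0 for Pax3. The 250 bases before the Pax7 start site are shown because the strongest acetylated region of either gene covers them (chr4:139832969-139833218, minus strand, written 5′ to 3′). The start site of this entry, 139832968, is not the higher-coordinate end of the gene, 139833530, from which distances are counted. The bases shown therefore lie before that start site but inside the annotated gene body. Capitals mark the 1 match to the GC box GGGCGG, here on the opposite strand.

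Pax7 promoter: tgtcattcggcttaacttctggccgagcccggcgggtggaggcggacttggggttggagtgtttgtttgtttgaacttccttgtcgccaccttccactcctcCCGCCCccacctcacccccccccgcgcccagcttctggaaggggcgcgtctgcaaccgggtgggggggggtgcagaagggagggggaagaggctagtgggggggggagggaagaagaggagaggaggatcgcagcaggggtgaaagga

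This stretch is rich in G and C, at 65.2% against a median of 52.4% over 32851 promoter windows of the same length. It held 13 CG steps, against a median of 6. Searched on both strands, it held 0 matches to the E-box CANNTG, the general target of MyoD and its relatives, and therefore 0 to CAGCTG, a form included in it. These were present in 66.2% and 13.0% of all windows. TAAT, the core of homeodomain targets, had 0 matches here and at least 1 in 54.9% of windows, and the GC box was found in 32.7%. A match or its lack describes these letters alone and says nothing of the factor.

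The peak lists were of unequal length. H3K27ac lists held 54082 and 39964 peaks in the LncMyoD-KD libraries and 46259 and 53048 in the Ctrl libraries, and MyoD lists 16524 and 13146 against 17818 and 17649. LncMyoD-KD 2 had the shortest list for both antibodies. Read depth is unknown, since the lists hold no read counts. As a check of the cell type, 10 of 10 satellite cell and myoblast markers, Pax7 included, had H3K27ac called no more than 1 kb from either gene end, in each of the 4 libraries, against 43.4% of all protein-coding genes. The same held for 1 of 5 endothelial markers (Tek), 0 of 5 fibro-adipogenic, 1 of 5 immune (Cd68) and 2 of 5 smooth muscle markers (Acta2 and Rgs5). Counting regions anywhere at the gene, 4 of 5 markers in each of these non-muscle lists had an H3K27ac region. The exceptions, with 0, were Kdr, Pdgfra, Ptprc and Myh11. A region in all 4 libraries was found at 4 endothelial, 2 fibro-adipogenic, 2 immune and 4 smooth muscle markers.

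Pax7 carried broad H3K27ac from its start through the first part of the gene, in every library. The widest region of either gene spanned 17.3 kb over the Pax7 start (139817104 to 139834431) and ranked 30 by width among all 59960 H3K27ac regions. Its highest fold enrichment, the authors' ratio of signal to local background at the peak summit, was 13.1 and 12.9 in LncMyoD-KD and 13.4 and 13.6 in Ctrl. Both LncMyoD-KD values were slightly below both Ctrl values. A fold belongs to its own list, so folds are described here and not tested between lists. Within their own lists these peaks ranked above 89.7% and 91.4% of peaks in LncMyoD-KD and 92.0% and 91.2% in Ctrl. The region was called as 2 and 4 separate peaks in LncMyoD-KD and as 1 peak in each Ctrl library. Called peaks covered 16.8 and 14.8 kb of it in LncMyoD-KD and 17.1 and 16.3 kb in Ctrl. The lncRNA gene Gm46873, on the plus strand at 139833178 to 139852920, begins inside the same region, so acetylation there cannot be assigned to Pax7 alone.

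**Figure D1:**
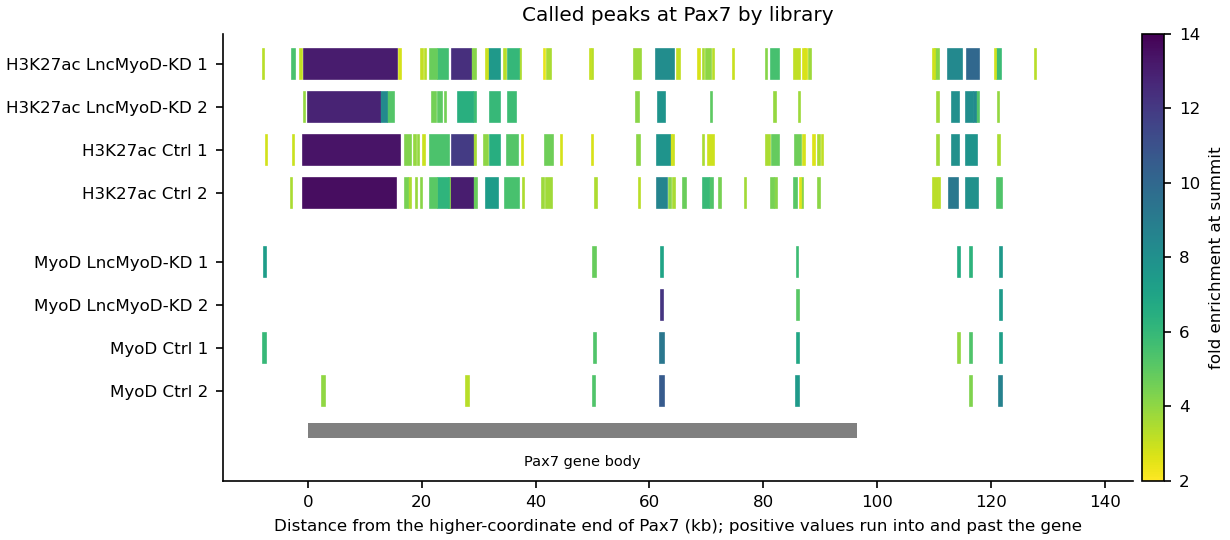
Called peaks at Pax7 in each library, against the distance in kb from the higher-coordinate end of the gene, the end from which it is read. Bars are peaks, the colour is their fold enrichment and the grey bar is the gene body. Broad H3K27ac with a fold above 12 covers the start in all 4 libraries, whereas MyoD peaks found in all 4 lie at 62.2, 86.1 and 121.7 kb.

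Downstream of this region, 4 more acetylated regions with a peak in every library followed between 23.1 and 35.8 kb. The one at 27.4 kb (139803855 to 139808317) had a fold of 12.4 and 6.42 in LncMyoD-KD and 11.9 and 13.0 in Ctrl. Only LncMyoD-KD 2 was low there, and its peak ranked above 58.9% of its own list, against 88.0% in LncMyoD-KD 1 and 88.6% and 90.2% in Ctrl. The regions at 23.1, 32.4 and 35.8 kb had folds from 4.97 to 7.54 over all libraries. The groups overlapped at 23.1 and 32.4 kb. At 35.8 kb (139796400 to 139799038) the fold was 6.00 and 5.77 in LncMyoD-KD and 5.21 and 5.48 in Ctrl, so both LncMyoD-KD values were above both Ctrl values.

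The middle and distal parts of Pax7 held 5 further regions with a peak in all 4 libraries. The strongest, at 62.9 kb (139768956 to 139772374), had a fold of 8.19 and 7.77 in LncMyoD-KD and 7.81 and 8.58 in Ctrl. Those at 57.9, 70.4, 82.1 and 86.0 kb were weaker, from 3.14 to 5.92. At 86.0 kb (139746836 to 139748145) both LncMyoD-KD values, 3.14 and 3.75, were below both Ctrl values, 4.65 and 5.13. Of the 10 constant regions in the gene body, the groups' folds did not overlap at 3. With 2 libraries per group, a share of 0.333 of the 6 assignments separates the groups fully, in either direction. How often this happened over all constant H3K27ac regions was not computed, so the 3 are described and not read as differences. The folds were lower in LncMyoD-KD at the start and at 86.0 kb and higher in LncMyoD-KD at 35.8 kb. Ranked within their own lists, the groups overlapped at the start and at 35.8 kb but not at 86.0 kb, where the peaks ranked above 18.9% and 9.07% of the list in LncMyoD-KD and 48.2% and 53.2% in Ctrl.

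Past the far end of the gene, 4 regions were acetylated in every library, between 13.5 and 24.6 kb from the gene body. Those at 16.0 kb (139718591 to 139721041) and 19.2 kb (139715515 to 139717870) were the strongest outside the gene. At 16.0 kb the fold was 8.37 and 8.03 in LncMyoD-KD and 7.99 and 9.17 in Ctrl. At 19.2 kb the values were 10.0 and 8.28 in LncMyoD-KD and 7.81 and 7.99 in Ctrl, so both LncMyoD-KD values lay above both Ctrl values. Ranked within their own lists the groups overlapped there, above 81.7% and 73.5% of peaks in LncMyoD-KD and 73.6% and 74.0% in Ctrl. The weakest of the 14 constant regions by mean fold, at 13.5 kb, had 4.19 and 3.70 in LncMyoD-KD and 3.72 and 3.26 in Ctrl. The next H3K27ac region on this side, 33.5 kb from Pax7 at 139702579 to 139703580, was nearer to the taste receptor gene Tas1r2 and was not counted, with folds of 4.55 and 3.95 in LncMyoD-KD and 3.90 and 3.85 in Ctrl. Just inside the rule lay a region 31.3 kb away with a peak of 3.27 in LncMyoD-KD 1 alone. In all, 6 H3K27ac and 3 MyoD regions within 50 kb of Pax7 went to Tas1r2.

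**Figure D2:**
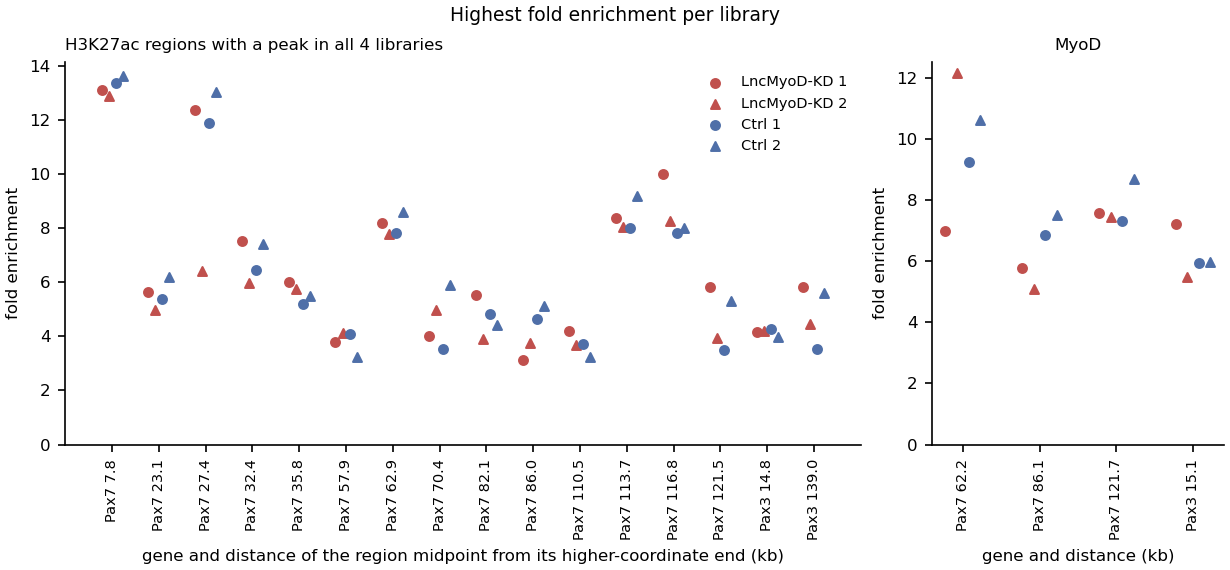
Highest fold enrichment in each library for H3K27ac regions (left) and MyoD regions (right) with a peak in all 4 libraries, labelled by gene and by the distance of the midpoint from the higher-coordinate end in kb. Red marks LncMyoD-KD and blue Ctrl, and circles are replicate 1 and triangles replicate 2; the Pax7 start region lies between 12.9 and 13.6, and LncMyoD-KD 2 is apart from the others at 27.4 kb.

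Of the 46 H3K27ac regions at Pax7, 14 (30.4%) were present in all 4 libraries, against 43.6% of all H3K27ac regions. Another 4 were in 3 libraries, as were 10.9% of all H3K27ac regions. All of these 4 lacked a peak in LncMyoD-KD 2, the library with the shortest list. How often that library was the missing one over all regions was not computed. A further 5 regions were in 2 libraries and 23 (50%) in 1, against 12.3% and 33.3% of all regions. The single-library regions were short, with a median width of 240 bp against 2403.5 bp for those in all 4, and their median fold was 3.27. They came from LncMyoD-KD 1 in 10 cases, from LncMyoD-KD 2 in 0, and from Ctrl 1 and Ctrl 2 in 6 and 7. LncMyoD-KD 2 therefore had peaks only in the 14 regions shared by all libraries.

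Ctrl-only regions, with a peak in both Ctrl libraries and in neither LncMyoD-KD library, numbered 3 of 46 (6.52%) at Pax7, against 1.46% of all H3K27ac regions. LncMyoD-KD-only regions numbered 0, against 0.769%. At 139815486 to 139816400 the Ctrl folds were 4.28 and 4.44, and this region lay 703 bp from the edge of the start region. At 139814366 to 139814900 they were 3.90 and 3.85, and at 139743614 to 139743861, near the far end of the gene, 3.53 and 4.07. The count was 0 when peaks within 1000 bp were merged and 1 when peaks had to reach a −log10 q of 5. It was 5 without LncMyoD-KD 1, 11 without Ctrl 1 and 9 without Ctrl 2, and 10 regions became LncMyoD-KD-only without LncMyoD-KD 2.

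The comparison of LncMyoD-KD with Ctrl asks how H3K27ac is distributed after the knockdown. At Pax7 the number of H3K27ac peaks was 41 and 22 in LncMyoD-KD and 34 and 37 in Ctrl. LncMyoD-KD 1 had the most and LncMyoD-KD 2 the fewest, so the groups overlapped. The means were 31.5 ± 13.4 in LncMyoD-KD and 35.5 ± 2.12 in Ctrl (SD, n = 2 each), a difference of −4 (two-sided exact permutation p = 1). With 6 assignments of 4 libraries, the smallest p this test can give is 0.333, so it cannot reach 0.05. Relative to list length, Pax7 took 7.59 and 5.51 of every 10000 peaks in LncMyoD-KD and 7.36 and 6.98 in Ctrl. Covered length was 48.6 and 28.7 kb in LncMyoD-KD and 46.2 and 44.6 kb in Ctrl, a difference of −6.67 kb that was smaller than the spread between the LncMyoD-KD libraries (exact permutation p = 1). Neither gene was among the 8.82% of 13927 genes with H3K27ac peaks whose covered length was lower in both LncMyoD-KD libraries than in both Ctrl libraries, or the 2.03% in which it was higher. Without LncMyoD-KD 2 both differences turned, to 5.5 peaks and 3.28 kb. With each H3K27ac list cut to the same number of peaks, Pax7 differed by −2.5 peaks (exact permutation p = 0.333, the smallest possible). Both LncMyoD-KD libraries then had fewer peaks than both Ctrl libraries, and how often this happened over all genes was not computed. In that setting the covered length differed by −6.42 kb (exact permutation p = 0.667).

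**Figure D3:**
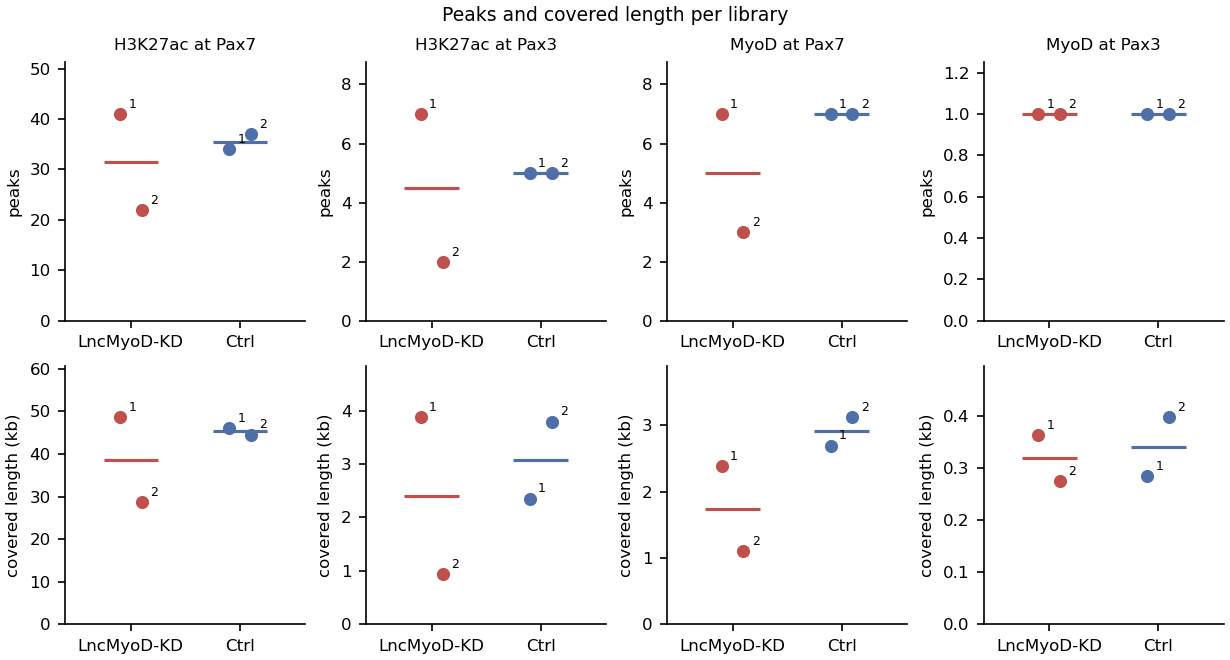
Number of peaks (top) and covered length in kb (bottom) at each gene and antibody; each point is a library, numbered by replicate, and each line is the group mean. LncMyoD-KD 1 and 2 lie on either side of the Ctrl libraries for H3K27ac peaks at both genes, and the MyoD covered length at Pax7 is lower in both LncMyoD-KD libraries.

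MyoD was called at Pax7 in 9 regions, of which 3 had a peak in all 4 libraries (33.3%, against 40.8% of all MyoD regions) and 0 were Ctrl-only or LncMyoD-KD-only (against 4.55% and 0.729%). The 3 constant regions lay in the middle of the gene, in its distal part and beyond its far end. At 62.2 kb (139771029 to 139771595) the MyoD fold was 7.0 and 12.1 in LncMyoD-KD and 9.22 and 10.6 in Ctrl. The LncMyoD-KD libraries were the lowest and the highest there, with both Ctrl libraries between them. By mean fold this was the strongest MyoD region of either gene, although in LncMyoD-KD 1 the regions at 121.7 kb of Pax7 and at Pax3 were among those with a higher fold. Its peaks ranked above 51.8% and 87.3% of the list in LncMyoD-KD and 73.8% and 81.7% in Ctrl.

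At 86.1 kb (139747178 to 139747670) MyoD had 5.77 and 5.09 in LncMyoD-KD and 6.84 and 7.49 in Ctrl. Both LncMyoD-KD values were the lower ones, as for H3K27ac at the region that contains this site. Of the 3 constant MyoD regions of Pax7, only this site had folds that separated the groups. How often that happened over all constant MyoD regions was not computed, and a link between the MyoD and H3K27ac values was not tested. The MyoD peaks at this site ranked above 34.8% and 16.3% of peaks in LncMyoD-KD and 53.6% and 61.8% in Ctrl. The third region, 25 kb past the gene (139711536 to 139712049), had 7.56 and 7.45 in LncMyoD-KD and 7.30 and 8.69 in Ctrl, and the groups overlapped. Summits of the 4 libraries fell within 72, 136 and 70 bp of each other at the 3 regions in this order.

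The other 6 MyoD regions were called in 1 to 3 libraries. Those at 50.3 kb (139782976 to 139783447) and 19.9 kb past the gene (139716797 to 139717187) lacked a peak in LncMyoD-KD 2 alone. In the region at 50.3 kb the fold was 4.81 in LncMyoD-KD 1 and 5.29 and 5.30 in Ctrl. Regions 17.8 kb past the gene and 7.44 kb before its start (139840967 to 139841361) were called in LncMyoD-KD 1 and Ctrl 1, and the second of these had 7.37 in LncMyoD-KD 1 and 5.95 in Ctrl 1. The regions nearest to the strong acetylation were called in Ctrl 2 only, with a fold of 3.97 at 139830471 to 139830975, inside the start region, and 3.28 at 139805257 to 139805762, inside the region at 27.4 kb. Hence 0 MyoD regions with a peak in all libraries lay in the first 50 kb of Pax7, the stretch that holds the regions of highest H3K27ac fold.

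The MyoD comparison asks whether its binding differs after the knockdown. Pax7 had 7 and 3 MyoD peaks in LncMyoD-KD and 7 and 7 in Ctrl, a difference of −2 (exact permutation p = 1) that was 0 without LncMyoD-KD 2. The covered length was 2.39 and 1.1 kb in LncMyoD-KD and 2.69 and 3.12 kb in Ctrl, so the groups did not overlap. The difference was −1.16 kb (exact permutation p = 0.333, the smallest possible). Of 8800 genes with MyoD peaks, 31.5% likewise had less covered length in both LncMyoD-KD libraries than in both Ctrl libraries, and 2.77% had more. The MyoD lists as a whole covered 6.12 and 4.65 Mb in LncMyoD-KD and 6.75 and 6.84 Mb in Ctrl. When each MyoD list was cut to the same number of peaks, the difference at Pax7 was −0.662 kb (exact permutation p = 0.667), and with peaks that reached a −log10 q of 5 it was −0.859 kb (exact permutation p = 0.667), and in both settings the groups overlapped. Without LncMyoD-KD 2 it was −0.519 kb.

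With the libraries of both groups pooled, all 9 MyoD regions of Pax7 overlapped an H3K27ac region, as did 69.8% of all MyoD regions. The 3 constant ones each overlapped an H3K27ac region of all 4 libraries, and 88.9% of constant MyoD regions overlapped an H3K27ac region of any kind. With peaks that reached a −log10 q of 5, or with equal numbers of peaks per library, 5 of 7 overlapped. The MyoD region 7.44 kb before the start met only an H3K27ac region called in LncMyoD-KD 1 alone. It did so through its Ctrl 1 peak, so no pair of libraries within a group overlapped there. The MyoD region at 50.3 kb met only H3K27ac regions called in 1 and 2 libraries. At both sites the median MyoD summit lay outside the H3K27ac peaks of every library. In the other direction, 10 of the 46 H3K27ac regions overlapped a MyoD region (26.4% of all H3K27ac regions did), and 7 of these were among the 14 present in all libraries. Acetylated regions without a MyoD region in any library included those at 23.1, 32.4, 35.8 and 57.9 kb.

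Peak by peak, the overlap depended on the library pair. In LncMyoD-KD, 6 of the 7 MyoD peaks of LncMyoD-KD 1 overlapped an H3K27ac peak of LncMyoD-KD 1 and 3 of 7 one of LncMyoD-KD 2. Of the 3 MyoD peaks of LncMyoD-KD 2, 3 and 2 did so. In Ctrl, 5 and 5 of the 7 MyoD peaks of Ctrl 1, and 7 and 6 of the 7 of Ctrl 2, overlapped an H3K27ac peak of Ctrl 1 and Ctrl 2. Replicate numbers do not tie a MyoD library to an H3K27ac library, so each pair within a group is given.

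The position of MyoD summits relative to acetylated peaks differed between the constant sites. At 62.2 kb the summit was inside an H3K27ac peak in all 4 H3K27ac libraries, 46.5 and 83.5 bp from an H3K27ac summit in LncMyoD-KD and 121.5 and 187.5 bp in Ctrl. At 86.1 kb it was inside a peak of LncMyoD-KD 1 and of Ctrl 1 only. At 121.8 kb, past the gene, it was inside a peak of LncMyoD-KD 1 and of Ctrl 2 only, and in LncMyoD-KD 2 and Ctrl 1 the nearest acetylated summit was 567.5 and 332.5 bp away. The site at 62.2 kb was thus the 1 of the 3 whose summit lay inside an acetylated peak of every library.

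**Figure D4:**
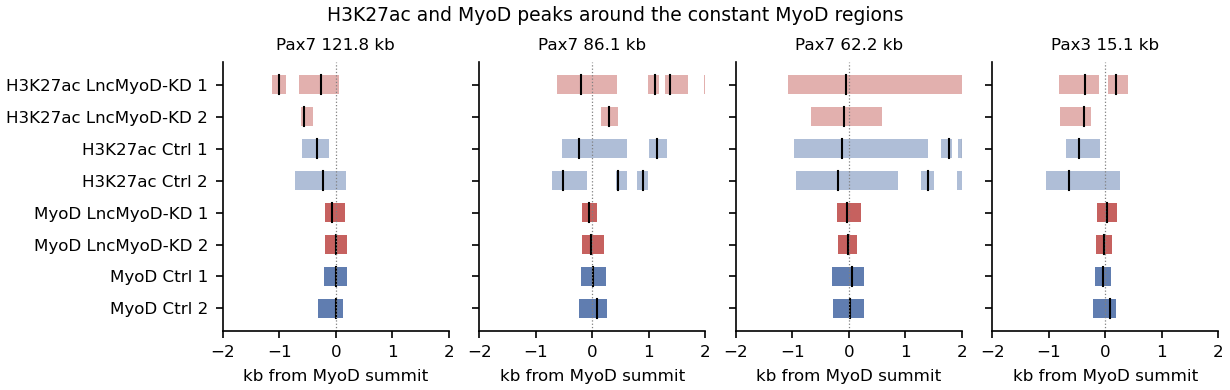
H3K27ac peaks (pale) and MyoD peaks (dark) of each library around the 4 MyoD regions present in all libraries, in kb from the median MyoD summit, with positive values towards lower coordinates; red is LncMyoD-KD, blue is Ctrl and black ticks are summits. At Pax7 62.2 kb the MyoD summit lies inside an H3K27ac peak of every library, whereas at Pax3 15.1 kb the MyoD summit falls inside an H3K27ac peak of Ctrl 2 alone.

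Pax3, of nearly the same length as Pax7, had fewer peaks in the same libraries. It had 7 and 2 H3K27ac peaks in LncMyoD-KD and 5 and 5 in Ctrl, covering 3.87 and 0.933 kb in LncMyoD-KD and 2.35 and 3.79 kb in Ctrl. Called peaks covered 2.57% and 0.576% of the Pax3 gene body in LncMyoD-KD and 1.80% and 2.64% in Ctrl, whereas at Pax7 they covered 41.8% and 26.1% in LncMyoD-KD and 42.6% and 39.3% in Ctrl. Each of the 4 libraries therefore had more acetylated length at Pax7. The difference in peak number at Pax3 was −0.5 (exact permutation p = 1), and in covered length −0.668 kb (exact permutation p = 1). Without LncMyoD-KD 2 these were 2 peaks and 0.802 kb, and without Ctrl 2 the covered length differed by 0.0545 kb.

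**Figure D5:**
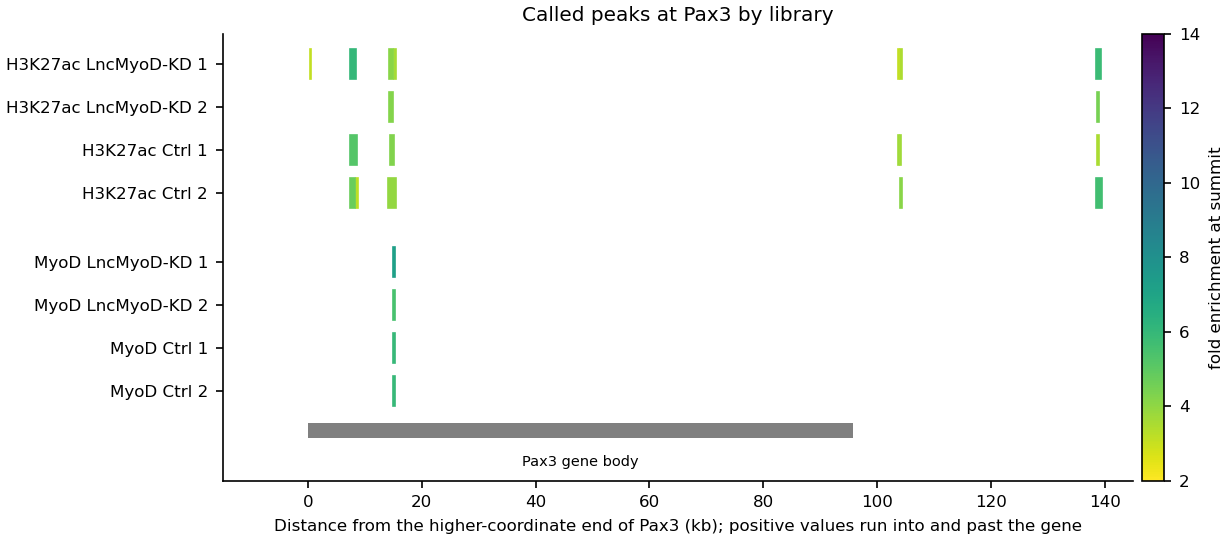
Called peaks at Pax3 in each library on the same scales as for Pax7, against the distance in kb from the higher-coordinate end of the gene; colour is fold enrichment and the grey bar is the gene body. Only LncMyoD-KD 1 has an H3K27ac peak within 1 kb of that end, and near 15 kb every library of both antibodies has a peak, although the MyoD peaks do not overlap the H3K27ac peak of LncMyoD-KD 2.

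Acetylation at the start of Pax3 was called in 1 library. A peak of 239 bp with a fold of 3.09 was found 0.46 kb inside the gene in LncMyoD-KD 1 (78196562 to 78196800), and LncMyoD-KD 2 and both Ctrl libraries had none there. The 2 H3K27ac regions in all 4 libraries lay elsewhere. At 14.8 kb inside the gene (78181605 to 78183045) the fold was 4.15 and 4.21 in LncMyoD-KD and 4.28 and 3.97 in Ctrl. The other, 42.6 kb past the far end (78057567 to 78058708), had 5.82 and 4.46 in LncMyoD-KD and 3.53 and 5.62 in Ctrl, and it is the member region nearest to the 50 kb limit on that side. No H3K27ac region followed on this side until 611 kb from Pax3, where one of Epha4 lay.

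The other 4 regions had a peak in fewer libraries. At 8.07 kb (78188384 to 78189756) the fold was 6.00 in LncMyoD-KD 1 and 5.21 and 4.73 in Ctrl, and LncMyoD-KD 2 had no peak. A pair of short regions lay 8.15 and 7.75 kb past the far end of the gene, and neither was called in LncMyoD-KD 2. The region at 8.15 kb had a fold of 3.46 in LncMyoD-KD 1 and 3.72 and 4.14 in Ctrl. Of the 6 regions, 2 (33.3%) were in all libraries, against 43.6% of all H3K27ac regions. Ctrl-only and LncMyoD-KD-only regions numbered 0, against 1.46% and 0.769% of all H3K27ac regions, and 6 regions are too few to tell this from those shares. When peaks had to reach a −log10 q of 5, 0 regions were in all 4 libraries.

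MyoD occupied a single region at Pax3, found in every library like 40.8% of all MyoD regions. It lay at 15.1 kb (78181790 to 78182213), within the H3K27ac region at 14.8 kb. The MyoD fold was 7.21 and 5.49 in LncMyoD-KD and 5.95 and 5.96 in Ctrl, with summits within 128 bp of each other. The LncMyoD-KD values lay on either side of the Ctrl values, and the peak ranked above 55.0% and 24.2% of its list in LncMyoD-KD and 39.6% and 40.4% in Ctrl. Under every alternative setting tried, Pax3 had this 1 MyoD region in all libraries. Its covered length was 0.364 and 0.275 kb in LncMyoD-KD and 0.285 and 0.398 kb in Ctrl, a difference of −0.022 kb (exact permutation p = 0.667). MyoD peaks overlapped an H3K27ac peak of LncMyoD-KD 1 and of both Ctrl libraries but not of LncMyoD-KD 2. The next MyoD region on the near side was 335 kb from Pax3, at Mogat1, with folds of 18.1 and 11.4 in LncMyoD-KD and 15.9 and 16.9 in Ctrl.

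Set among all genes, Pax7 was near the top in acetylated regions and Pax3 was not. Of the other protein-coding genes, 30 (0.139%) had at least as many H3K27ac regions as the 46 of Pax7, and 78 had at least as many present in all 4 libraries as its 14. Among the 1214 genes annotated at 80 to 120 kb, in which the median gene had 4 regions, 0 others reached 46 and 8 others reached 14. For Pax3, 12.5% of genes had at least its 6 regions. The 9 MyoD regions of Pax7 were matched or passed by 238 genes, and the single region of Pax3 by 40.7% of genes. The number of regions depends on how broad domains are broken up. It was 18 at Pax7 when peaks within 1000 bp were merged, and then 5 at Pax3.

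By covered bases over the 8 libraries, the genes with the pattern most like Pax7 were Pde4b, a cyclic AMP phosphodiesterase, Lrig1, a negative regulator of growth factor receptors, and Vgll4, a cofactor of TEAD factors. Their distances on a log2 scale, after adding 1000 bases, were 0.554, 0.558 and 0.565. Lrig1, with a gene of 95.8 kb, had 33 H3K27ac regions with 16 in all 4 libraries, and 10 MyoD regions with 5 in all 4. For Pax3 the nearest were Slc16a1, a lactate transporter, Ipmk, an inositol kinase, and Rabggta, a subunit of a prenyl transferase for Rab proteins, at 0.427, 0.459 and 0.465.

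The other 7 Pax genes, which pattern organs such as eye, kidney, thyroid and pancreas, had few regions. Together they had 5 H3K27ac regions and 4 MyoD regions, and 0 of 7 had an H3K27ac peak within 1 kb of a gene end in any library. Pax2, Pax5 and Pax8 each had 1 MyoD region present in all 4 libraries, and each of the 4 MyoD regions overlapped an H3K27ac region. Pax1, Pax4, Pax6 and Pax9 had 0 regions of either antibody. For comparison, a gene-end peak was called at Pax7 in all 4 libraries and at Pax3 in LncMyoD-KD 1 alone.

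Partners, regulators and targets of Pax3 and Pax7 were counted as a list of 37 genes, 28 of which had a gene-end H3K27ac peak in all 4 libraries, against 43.4% of all protein-coding genes. Their H3K27ac regions numbered 218, with 92 (42.2%) called in each of the 4 libraries; 5 (2.29%) were Ctrl-only and 1 was LncMyoD-KD-only, against 43.6%, 1.46% and 0.769% of all regions. Of 99 MyoD regions, 55 (55.6%) were in all libraries, 8 (8.08%) Ctrl-only and 0 LncMyoD-KD-only, against 40.8%, 4.55% and 0.729%. A difference of the list from all regions was not tested.

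Among the targets, Met, the receptor that directs migration of muscle precursors, had 15 H3K27ac regions and 5 MyoD regions in all 4 libraries. Myod1 had 3 and 5, and Fgfr4, a growth factor receptor of myoblasts, 5 and 4. Id3, an inhibitor of MyoD dimers that Pax7 activates, had 3 and 4, and Id1 3 and 3. Myf5, a direct target of Pax7, had 1 H3K27ac region in all libraries and 0 such MyoD regions. Lbx1 and Dmrt2, targets of Pax3 in the embryo, had 1 and 2 H3K27ac regions and 2 and 1 MyoD regions in all libraries.

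Among upstream and partner genes, Eya1, a transcriptional coactivator that acts above Pax3, had 1 H3K27ac region and 2 MyoD regions in all libraries. The Notch receptors Notch1 and Notch3 had 6 and 5 H3K27ac and 5 and 2 MyoD regions. Carm1, Kdm6a and Paxbp1, a methyltransferase, a demethylase and a bridging protein that work with Pax7 or Pax3, had 2, 1 and 1 H3K27ac regions in all libraries and 0 MyoD regions of any kind.

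Regions of this list seen in a single group are named here. For H3K27ac, Ctrl-only regions lay at Cxcr4, Id3, Kmt2a, Pitx3 and Rbpj, with Ctrl folds from 2.96 to 4.44, and the LncMyoD-KD-only region lay at Fgfr4, with 2.14 and 4.72. For MyoD, Cxcr4, a chemokine receptor, and Rbpj, the effector of Notch signalling, held 2 each. Heyl (a Notch target), Met, Kmt2a (a histone methyltransferase) and Spry1, which holds satellite cells quiescent, held 1 each. At Heyl the Ctrl folds were 5.62 and 6.62, and at Spry1 6.94 and 3.97. The values of the other 6 ran from 4.30 to 5.63.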

How the data were processed

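ChIP libraries (8 of the 16 samples) were analysed; the 8 input samples were not analysed here. Peaks were called separately for each library; tools named in the submitters' processing notes, with mm10 as the build, are MACS2 2.1.1, bedtools 2.26.0, Bowtie2 2.3.2, SAMtools 1.3 and Picard 2.9.2. Their options, and which input each call used, are not stated there. In the deposited lists every peak carries a fold enrichment (a linear ratio made by the authors' caller), −log10 p, −log10 q and a score, 10 times −log10 q by the authors' caller, with the distance to the summit. Folds describe peaks within their own list; depth is unknown, so precision rests on the spread between 2 libraries per group.

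Regions on chromosomes 1 to 19 and X were merged (gap 0 bp, minimum overlap 1 bp) with Python 3.11.15 and pandas 2.3.3, and assigned to RefSeq genes of GRCm38.p6. Every overlapped gene was kept. The merging and assignment code was tested on simulated data. Group differences used the two-sided exact permutation test. Alternatives were a merge gap of 1000 bp, −log10 q of at least 5, equal peak numbers, assignment within 20 kb or by gene body only, overlap by summit, leaving out each library and the replicate block. Members and gene lists were chosen with earlier results of these data known. Genes named beside the members were the other Pax genes, a list of partners and targets (values for those with group-only regions or constant MyoD regions) and the 3 genes nearest in covered bases. Some genes of these lists are not reported here by name.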

Additional observations from a re-analysis of the deposited data

How the results depend on the processing

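Of 236 values listed under alternatives, 206 kept their direction or stayed within 1.5 times the reported count. Some of these could not change: the 8 of the replicate block, and all but the overlap counts among the 22 by summit. The 8 group differences also had the same values with a merge gap of 1000 bp, which joins regions but leaves the peaks as they are. No group difference could pass the test under any alternative, so that agreement says nothing about stability. With −log10 q of at least 5, 9 H3K27ac regions of Pax7 and 0 of Pax3 were in all 4 libraries, 1 at Pax7 was Ctrl-only for H3K27ac and 1 for MyoD, and 5 of 7 MyoD regions of Pax7 overlapped H3K27ac. With equal numbers of peaks these last counts were 1 and 5, and the H3K27ac peaks at Pax7 differed by −2.5 (exact permutation p = 0.333). With gene bodies only, 5 of 5 MyoD regions of Pax7 overlapped, the H3K27ac peak difference at Pax3 was 0 and 1 region of Pax3 was in all libraries, as within 20 kb. A merge gap of 1000 bp left 0 Ctrl-only H3K27ac regions at Pax7. Presence by summit cannot differ from presence by overlap, and 7 MyoD regions of Pax7 had a summit in acetylated chromatin.

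With 1 library left out, the difference in H3K27ac peaks (LncMyoD-KD minus Ctrl) ran from −13.5 to 5.5 at Pax7 and −3 to 2 at Pax3, and in covered kb from −16.6 to 3.28 and −2.14 to 0.802. Both signs turned without LncMyoD-KD 2, and the covered length at Pax3 also without Ctrl 2 (0.0545). For MyoD, peaks at Pax7 differed by −4 to 0 and covered kb by −1.81 to −0.519, and the covered kb at Pax3 by −0.0785 to 0.0345, with positive values of 0.0345 without Ctrl 2 and 0.0225 without LncMyoD-KD 2. H3K27ac regions of Pax7 were Ctrl-only in 3 to 11 cases and LncMyoD-KD-only in 0 to 10, and those of Pax3 in 0 to 2 and 0 to 1. H3K27ac regions in all remaining libraries numbered 14 to 18 at Pax7 and 2 to 4 at Pax3. MyoD regions of Pax7 in all remaining libraries numbered 3 to 5, and 0 to 2 were Ctrl-only. A group-only region then needs fewer peaks by construction; other causes were not tested.

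Replicates share only a number. As a check, deviations of log2 fold of same-numbered libraries correlated at 0.155 over 26113 H3K27ac and 0.104 over 9909 MyoD regions in all libraries, with only 2 libraries per group. In the replicate block the mean differences are the same, with a smallest p of 0.5: at Pax7 −4 H3K27ac peaks (exact p = 1) and −1.16 kb of MyoD (exact p = 0.5). Neither test can reach 0.05, so there was no call for the block to change.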
